A study of Mus musculus with 8 samples.

Results

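The 78 mitochondrial ribosomal protein genes described here were the rows of a hippocampal read-count table whose symbol began with Mrps or Mrpl and a digit and whose reads over the 8 libraries reached 80. They were 78 of the 24527 rows, 29 with an Mrps symbol (small subunit) and 49 with an Mrpl symbol (large subunit), on 17 chromosomes. No matching row fell below the minimum of 80 reads, and the members with the fewest were Mrpl14, with 832 reads, and Mrpl34, with 979. The BPA animals were 4 male C57BL/6J mice that had been exposed during gestation and lactation to bisphenol A (BPA, a plastic monomer with hormone-like activity), given as 50 mg per kg of diet. The Control animals were 4 male C57BL/6J mice. The diet given over the same period, in gestation that of the mother, held 0 mg of BPA per kg. All 8 were wild-type, received the low-phytoestrogen control diet after weaning at postnatal day 21, and were sampled at 20 weeks, so the hippocampus was sampled after exposure had ended. The sources used here do not say if animals of a group were littermates, and if so the p-values measure only the spread between these 8 animals.

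Mitochondria carry their own ribosome, the mitoribosome, which translates the few messages encoded in mitochondrial DNA, all of them for membrane subunits of the respiratory chain and the ATP synthase. Its RNAs are made in the organelle, but all of its proteins are encoded in the nucleus, made in the cytosol and imported. The small subunit binds the message and holds the decoding centre, and the large subunit joins amino acids and feeds the growing chain through its exit tunnel to the inner membrane. Some members have bacterial counterparts, and others are found only in mitochondria. Neurons depend heavily on oxidative phosphorylation, and inherited defects of human mitoribosomal proteins can cause encephalopathy.

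The 4 BPA libraries were deeper, with 43.1 to 54.01 M (mega) reads counted to genes, against 27.1 to 40.8 M in the 4 Control libraries. Depth and exposure therefore cannot be told apart in the counts as deposited. Markers of hippocampal neurons (9 of 9 present) summed to 5005 to 5406 CPM (counts scaled to a common library size, per M reads) in BPA libraries and 4722 to 5476 in Control libraries. All 10 choroid plexus markers were detected, with a sum of 38.1 to 475 CPM in BPA libraries and 65.3 to 1969 CPM in Control libraries, the highest value being that of Control 2 and the next that of BPA 3. All 7 ependymal markers were detected too, at 15.7 to 25.2 CPM in BPA and 18.5 to 37.8 CPM in Control. The estimate was below 0 for all 10 choroid plexus markers, with a median log2 fold change of -1.31. It was below 0 for all 7 ependymal markers too, with a median of -0.43. The lower mean of the choroid plexus sum in BPA libraries came from Control 2. Control 1, Control 3 and Control 4 held 106, 65.3 and 126 CPM, inside the BPA range, with BPA 1 at 170 and BPA 3 at 475 CPM. Sums of the markers of endothelium, microglia, oligodendrocytes and astrocytes, 4 genes each, overlapped between the groups, and 3 of 4 blood markers were listed at 0 in every library. The part of these cell types in the values of the ribosomal protein genes was not tested, and in bulk tissue fewer cells of a type and less RNA per cell cannot be told apart.

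No mitochondrial ribosomal protein gene passed the test between BPA and Control mice. Quasi-likelihood testing in edgeR, with Benjamini-Hochberg adjustment over 15434 genes, called 0% of all genes as well, while limma-voom called 0 genes and DESeq2 called 7, none of them a member. All 78 members were tested, and their adjusted p-values ran from 0.955 to 0.994. At an unadjusted p under 0.05 there were 3 members, Mrpl41, Mrps11 and Mrps34, all higher in BPA mice. The same threshold took 4.52% of all genes in either direction, made up of 2.22% higher and 2.30% lower in BPA mice, so the count of 3 is near the background. It was 1 without BPA 2 and 6 without BPA 3, and the share of all genes moved with it, to 2.28% without BPA 2 and 6.65% without BPA 3. The smallest unadjusted p of a member was 0.00419, for Mrpl41.

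Small differences in 1 direction were nevertheless common. The estimate was above 0 for 60 of 78 members (76.9%), against 50.0% of all genes tested, and below 0 for 18. The median log2 fold change of BPA over Control was 0.055 over the members, with quartiles of 0.010 and 0.086, against 4.9e-05 over all genes tested. Members share libraries and vary together, so these counts describe the list and carry no test. With every library thinned to the smallest total 62 members were above 0, and without Control 2 and BPA 3, the libraries with the most choroid plexus RNA, 59 were. Short genes leaned the same way in the whole table: 56.6% of genes in the quartile with the least exon length had an estimate above 0, against 39.3% in the quartile with the most. Of the members, 54 fell in that shortest quartile, 42 of them above 0, and the 24 longer members split into 18 above and 6 below. The part of gene length in the members' direction was not tested.

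The precision was enough to bound these differences. The median standard error of a member's log2 fold change was 0.065. All 78 members had a 95% interval that excluded a 1.5-fold difference either way, and 76 had one that excluded a 1.3-fold difference. The exceptions to the narrower limit were Mrps28 and Mrpl52, named for this after their values were seen. The highest upper bound was 1.34-fold, for Mrpl52, and the lowest lower bound was 0.790-fold, for Mrps24. Point estimates were under 0.10 in size on the log2 scale for 63 members, and of the other 15, 13 were higher in BPA mice and 2, Mrpl57 and Mrps24, were lower. Within a group, the SD of log2 level had a median of 0.082 over members and 0.108 over all genes, and ran from 0.0237 for Mrps22 to 0.213 for Mrpl4.

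**Figure D1:**
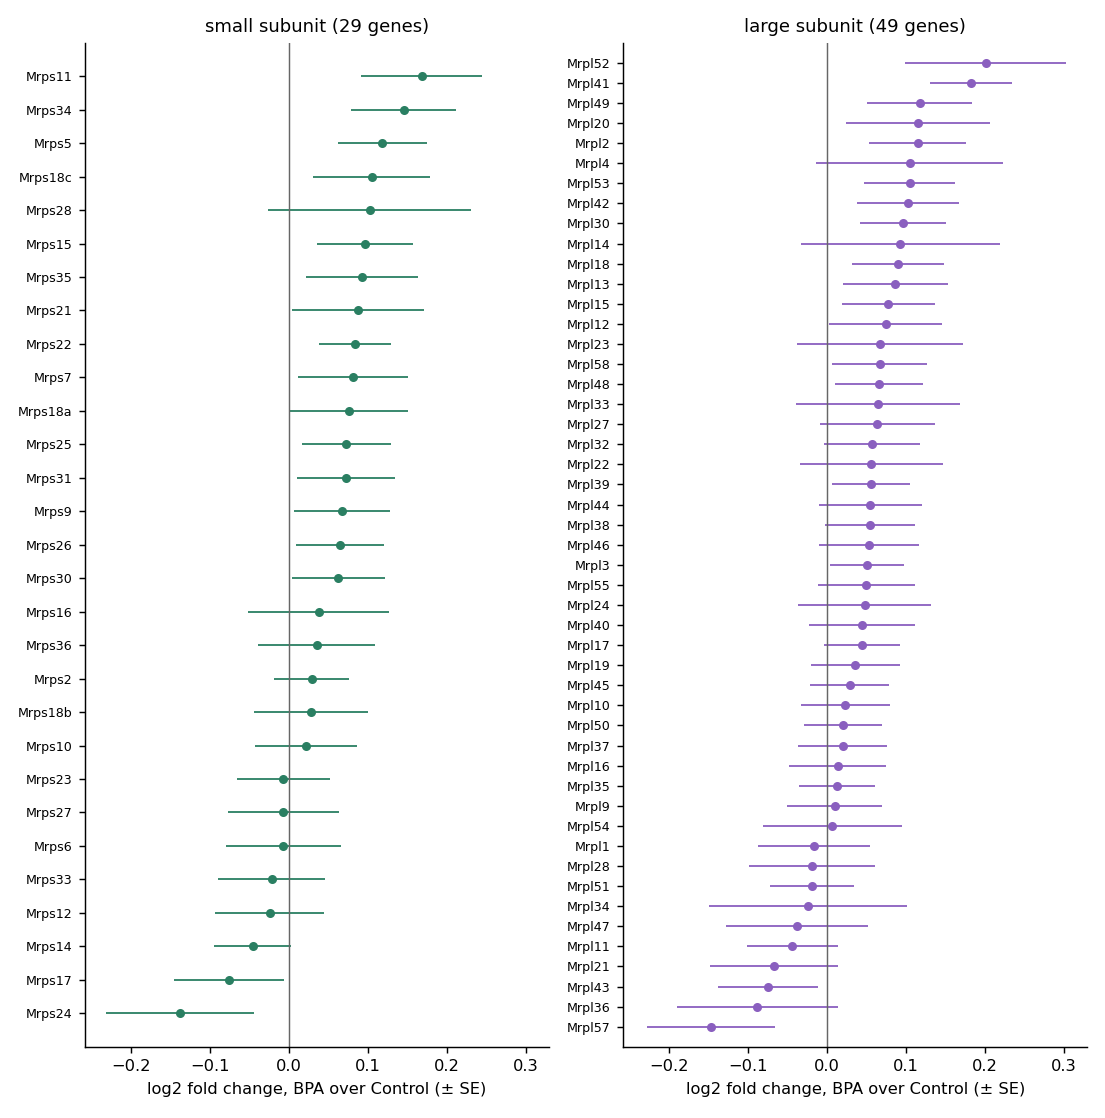
Log2 fold change of BPA over Control (x axis, points, with SE as bars) for each of the 29 small-subunit genes (left) and 49 large-subunit genes (right), sorted by value. Most points lie right of 0, 60 of 78 in all, between -0.15 for Mrpl57 and 0.20 for Mrpl52, and no gene passed the adjusted threshold.

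The 2 subunits had close distributions. The median log2 fold change was 0.066 for the small subunit, with 21 of 29 genes above 0, and 0.053 for the large subunit, with 39 of 49 above 0. The quartiles were -0.0066 and 0.088 for the small subunit and 0.013 and 0.078 for the large. Symbols do not follow structure entirely, since Mrps18a and Mrps30 proteins sit in the large subunit of the mammalian mitoribosome. With both moved, the medians were 0.066 for 27 small-subunit genes and 0.054 for 51 large-subunit genes. Those 27 still hold Mrps36, whose protein belongs to another complex, and the median of the other 26 was 0.067. The order of the 2 medians was not stable: without BPA 1 the difference, small minus large, was -0.0056 instead of 0.013. It was -0.012 among the 51 members whose exons share no base with an annotated exon of a gene on the opposite strand, whose medians were 0.038 (small, 21 genes) and 0.050 (large, 30 genes).

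**Figure D2:**
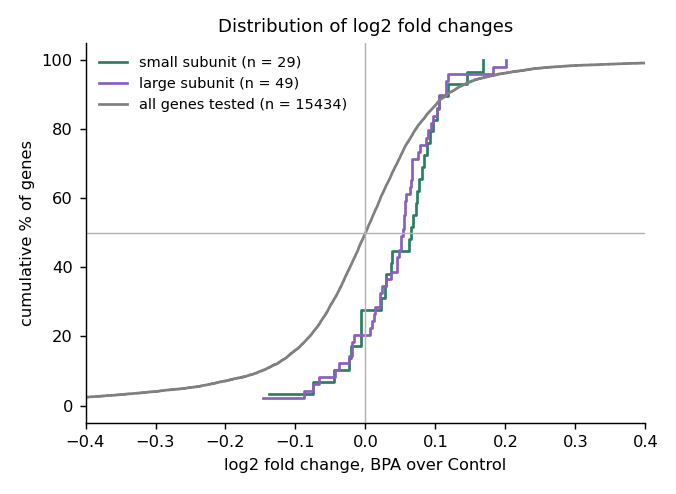
Cumulative percentage of genes (y axis) at or below each log2 fold change of BPA over Control (x axis), for the 29 small-subunit genes, the 49 large-subunit genes and all 15434 genes tested. Both subunit curves lie right of that of all genes at the middle of the plot, with medians of 0.066 and 0.053 against 4.9e-05, and the subunit curves cross each other.

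By library, summed small-subunit levels were 508, 507, 498 and 512 CPM in BPA mice, against 483, 492, 487 and 504 CPM in Control mice. Summed large-subunit levels were 861, 878, 846 and 867 CPM in BPA mice, against 815, 829, 848 and 849 CPM in Control mice. Both sums overlapped between the groups: BPA 3, the lowest BPA library in each, lay below Control 4 in the small subunit and below Control 3 and Control 4 in the large. The small subunit averaged 506.4 ± 5.92 CPM in BPA mice and 491.8 ± 9.21 CPM in Control mice, and the large subunit 863 ± 13.5 CPM in BPA mice and 835 ± 16.3 CPM in Control mice (SD, n = 4 each). The members together took 0.135% to 0.141% of reads in BPA libraries and 0.129% to 0.137% in Control libraries.

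The balance between the subunits was close to constant. Small-subunit genes supplied 36.6% to 37.2% of the members' reads in BPA libraries and 36.5% to 37.3% in Control libraries. The mean log2 CPM of small minus large subunit was 0.0320 ± 0.0210 in BPA mice and 0.0293 ± 0.0151 in Control mice (SD, n = 4 each), a gap far inside the spread within either group. The number of members above their own mean over the 8 libraries was 52, 56, 38 and 49 in the BPA libraries, against 23, 28, 31 and 40 in the Control libraries. BPA 3 thus had fewer members above their mean than Control 4.

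**Figure D3:**
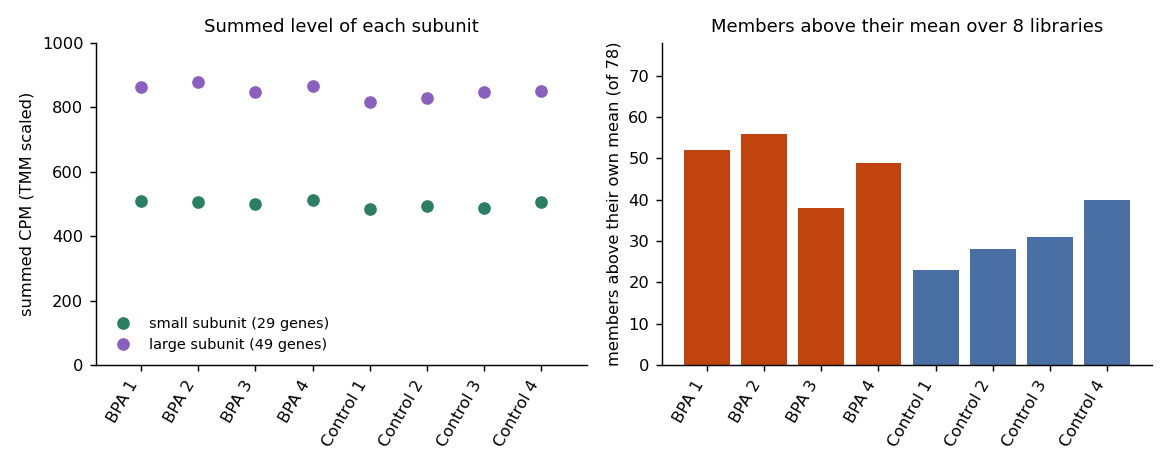
Left, summed CPM (y axis) of the small-subunit and large-subunit genes in each of the 8 libraries (x axis). Right, the number of the 78 members above their own mean over all libraries (y axis), 38 to 56 in BPA libraries and 23 to 40 in Control libraries, so that the groups overlap in 1 library each.

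In 3 members every BPA library lay above every Control library, namely Mrpl41, Mrps22 and Mrpl53, and in none did every BPA library lie below. Over all genes tested, 1.37% separated with BPA higher and 1.43% with BPA lower, 2.79% in either direction.

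The members also share promoter features that their choice did not use. RefSeq promoters (GRCm38.p6, 250 bases before to 50 after the start) were held for 69 of the 78 members, with no entry for Mrps28, Mrps34, Mrps35, Mrpl4, Mrpl13, Mrpl15, Mrpl19, Mrpl38 and Mrpl54. Exact matches were counted on both strands and set against the 11785 tested genes with a promoter. The letters CCGGAAG, a core bound by ETS factors such as GABP (NRF2), were in 26 of 69 members (37.7%), against 17.5% of all these promoters. The NRF1 site, written GCGCA, any base, GCGC, was in 13 (18.8%), against 10.3%, and AAGATGGC, the YY1 site, was in 12 (17.4%), against 4.68%. Promoters with GGGCGG, the GC box, were fewer than in all genes, 34 of 69 (49.3%) against 66.1%, while CCAAT was in 27 (39.1%) against 42.5% and TATAAA in 5 (7.25%) against 9.11%. None of these words contains another. The members' median log2 fold change of BPA over Control was 0.053 with CCGGAAG and 0.050 without, 0.057 with the NRF1 word and 0.046 without, and 0.039 with AAGATGGC and 0.051 without. It was 0.052 with GGGCGG and 0.051 without, 0.063 with CCAAT and 0.045 without, and 0.014 in the 5 members with TATAAA and 0.053 without. No test was made of these values. A match is a description of letters, and no binding was measured.

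The stretches below show these words in selected members: in Mrpl41 and Mrps22, which did not overlap between groups, in the paralogue Mrps18a, in the stalk gene Mrpl12, and in 2 pairs of genes that start back to back. Each is from the RefSeq promoter table (GRCm38.p6), 5′ to 3′ on the strand of the first-named gene, with motif matches in capitals on either strand. The single-gene stretches are the 120 bases before the RefSeq start, and the paired ones are all bases between the RefSeq starts. GENCODE exons reach into some of them. An annotated exon covers 18 bases of the Mrps18a stretch, 24 of the Mrpl12 stretch and 12 of that between Mrps11 and Mrpl46. Mrpl41 (chr2:24975099-24975218, minus strand) holds CCAAT in its reverse form at 2 places, where it reads ATTGG.
Mrpl41: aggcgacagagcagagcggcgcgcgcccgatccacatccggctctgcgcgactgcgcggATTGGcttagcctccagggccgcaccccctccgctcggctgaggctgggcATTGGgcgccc
Mrps22 (chr9:98601680-98601799, minus strand) and Mrps18a (chr17:46110884-46111003, plus strand) hold the ETS word near the start.
Mrps22: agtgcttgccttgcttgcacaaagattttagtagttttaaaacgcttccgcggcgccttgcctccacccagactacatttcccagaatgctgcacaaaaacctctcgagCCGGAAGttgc
Mrps18a: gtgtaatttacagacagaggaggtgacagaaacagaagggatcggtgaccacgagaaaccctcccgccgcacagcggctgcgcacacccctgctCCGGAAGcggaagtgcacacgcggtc
Mrpl12 (chr11:120484517-120484636, plus strand) holds the NRF1 word in its reverse form.
Mrpl12: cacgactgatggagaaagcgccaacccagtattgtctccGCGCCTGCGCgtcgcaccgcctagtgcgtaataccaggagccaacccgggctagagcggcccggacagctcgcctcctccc
The stretch between Mrps11 and Mrpl46 (chr7:78783090-78783130, plus strand) holds a GC box, and that between Mrps12 and Sars2 (chr7:28741822-28741967, minus strand) holds CCAAT and a reversed GC box.
Mrps11 and Mrpl46: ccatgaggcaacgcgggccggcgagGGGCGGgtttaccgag
Mrps12 and Sars2: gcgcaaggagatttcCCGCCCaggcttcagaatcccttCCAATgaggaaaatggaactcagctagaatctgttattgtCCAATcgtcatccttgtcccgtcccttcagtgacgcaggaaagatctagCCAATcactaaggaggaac

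Such back-to-back starts, at most 1000 bases apart on opposite strands, were found for 25 of the 69 members with a promoter (36.2%), against 12.8% of the 11785 tested genes. The 25 members made 24 pairs, since Mrps11 and Mrpl46 are each other's partner, with 41 bases between their starts. In that pair the log2 fold change of BPA over Control was 0.17 ± 0.077 for Mrps11 and 0.05 ± 0.064 for Mrpl46. Mrps12 starts 146 bases from Sars2, the mitochondrial seryl-tRNA synthetase, and had a log2 fold change of -0.02 ± 0.069 beside 0.07 ± 0.11 for Sars2. Mrpl43 starts 115 bases from Twnk, the mitochondrial DNA helicase, with a log2 fold change of -0.07 ± 0.063 for Mrpl43 and 0.14 ± 0.068 for Twnk. Mrpl57 starts 75 bases from Ska3, a kinetochore gene, and both were below 0, at -0.15 ± 0.081 for Mrpl57 and -0.26 ± 0.18 for Ska3. The estimates of the pair had the same sign in 12 pairs and opposite signs in the other 12. Many of these estimates were smaller than their SE, so their signs are uncertain, and a common direction of neighbours was not tested.

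Mrpl41 encodes a large-subunit protein found only in mitochondria, placed near the exit of the peptide tunnel, and lies at chr2:24974117-24975098 on the minus strand (GRCm38). It had 34.9, 38.7, 36.3 and 39.5 CPM in BPA mice, against 32.1, 32.9, 34.4 and 32.3 CPM in Control mice. The lowest BPA library, BPA 1, was just above the highest Control library, Control 3. The means were 37.3 ± 2.11 CPM in BPA mice and 32.9 ± 1.07 CPM in Control mice (SD, n = 4 each), a log2 fold change of 0.18 ± 0.052 (SE), or 1.13-fold with a 95% interval of 1.05 to 1.23 (edgeR adjusted p = 0.955). The gene overlaps no annotated exon on the opposite strand.

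Mrps22 encodes a small-subunit protein with no bacterial counterpart, whose human form is mutated in a fatal infantile mitochondrial disease. Its levels were 22.7, 22.3, 22.0 and 21.7 CPM in BPA mice, against 21.1, 20.7, 20.7 and 21.1 CPM in Control mice. The groups did not overlap, and both were tight, with means of 22.2 ± 0.436 CPM in BPA mice and 20.9 ± 0.261 CPM in Control mice (SD, n = 4 each). The log2 fold change was only 0.08 ± 0.046 (edgeR adjusted p = 0.955), in a fit that shares its estimate of spread across genes. Mrpl53, whose protein lies by the stalk of the large subunit, had 12.4, 13.4, 13.1 and 13.1 CPM in BPA mice, against 12.1, 12.3, 12.1 and 11.9 CPM in Control mice. BPA 1 and Control 2 nearly touched, and the log2 fold change was 0.10 ± 0.057 (edgeR adjusted p = 0.955). Mrpl53 shares 15 of its 695 exon bases with the antisense gene Ccdc142os, and without a known strand setting reads over those bases cannot be told apart.

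Among the other small-subunit genes, the smallest p-values belonged to Mrps11, Mrps34, Mrps5 and Mrps15. Mrps11, the counterpart of a bacterial protein of the small-subunit platform, had 10.6, 10.6, 9.29 and 10.1 CPM in BPA mice, against 9.91, 9.03, 8.78 and 8.31 CPM in Control mice. BPA 3 lay below Control 1, so the groups overlapped. The log2 fold change was 0.17 ± 0.077 (edgeR adjusted p = 0.955). By GENCODE exons, 173 of its 1056 exon bases overlap its neighbour Mrpl46 on the opposite strand, while the RefSeq starts lie 41 bases apart. Mrps34, a mitochondria-specific protein whose human form is mutated in Leigh syndrome, had 13.9, 13.5, 14.5 and 12.4 CPM in BPA mice, against 11.98, 11.7, 13.0 and 12.4 CPM in Control mice. Here BPA 4 lay inside the Control range, the log2 fold change was 0.15 ± 0.067 (edgeR adjusted p = 0.955), and Mapk8ip3 overlaps 576 of its 918 exon bases on the opposite strand. Mrps5, also with a bacterial counterpart, had 22.6, 23.5, 20.4 and 22.4 CPM in BPA mice, against 21.3, 20.0, 20.0 and 20.5 CPM in Control mice. BPA 3 again lay inside the Control range, and the log2 fold change was 0.12 ± 0.056 (edgeR adjusted p = 0.955). Mrps15 averaged 19.5 ± 0.867 CPM in BPA mice and 18.3 ± 1.18 CPM in Control mice (SD, n = 4 each), with overlapping groups.

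Among the other large-subunit genes, the smallest p-values belonged to Mrpl52, Mrpl2 and Mrpl57. Mrpl52, a mitochondria-specific protein, had the largest estimate of all members, from 7.89, 9.03, 8.32 and 7.86 CPM in BPA mice, against 6.65, 7.17, 6.33 and 8.80 CPM in Control mice. Control 4 lay above 3 of the 4 BPA libraries and the other 3 Control libraries lay below all of them. The log2 fold change was 0.20 ± 0.10 (edgeR adjusted p = 0.955), and 0.30 without Control 4. Mrpl2, whose bacterial counterpart lies close to the peptidyl transferase centre, averaged 17.7 ± 1.19 CPM in BPA mice and 16.4 ± 0.535 CPM in Control mice (SD, n = 4 each), a log2 fold change of 0.12 ± 0.061 (edgeR adjusted p = 0.955), and 0.07 without BPA 2.

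Mrpl57, a short mitochondria-specific large-subunit protein, had the lowest estimate of all members. Its levels were 12.1, 11.9, 10.6 and 12.8 CPM in BPA mice, against 12.1, 13.4, 12.2 and 14.8 CPM in Control mice. The groups overlapped, BPA 4 lying above Control 1 and Control 3, and the log2 fold change was -0.15 ± 0.081 (edgeR adjusted p = 0.955), and -0.09 without Control 4. The other member beyond 0.10 on the lower side, Mrps24, averaged 7.06 ± 0.639 CPM in BPA mice and 7.74 ± 0.745 CPM in Control mice (SD, n = 4 each). Mrpl4, the member with the widest spread, had 16.5, 14.7, 14.8 and 13.0 CPM in BPA mice, against 12.1, 12.1, 17.8 and 12.9 CPM in Control mice. Control 3 was its highest library, and the other 3 Control libraries were its lowest. Mrps24 and Mrpl4 were singled out after their values were seen.

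**Figure D4:**
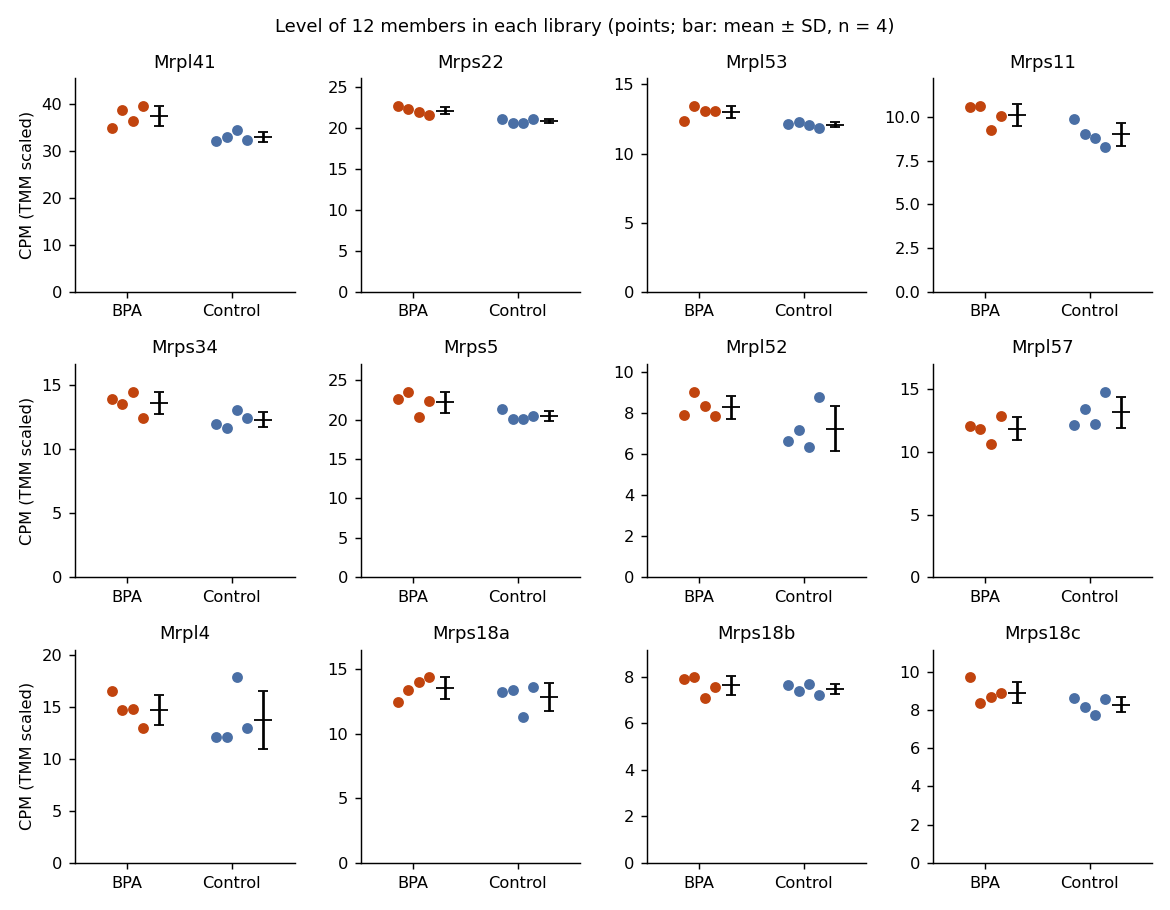
CPM (y axis, from 0) of 12 members in each BPA and Control library (points), with the group mean and SD beside them (n = 4 each). In Mrpl41, Mrps22 and Mrpl53 all BPA points lie above all Control points, and in the other 9 panels the groups overlap.

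Of the small-subunit genes named for their role, Mrps12, Mrps2 and Mrps27 had estimates within 0.03 of 0. Mrps12, the protein of the decoding centre, averaged 8.61 ± 0.382 CPM in BPA mice and 8.74 ± 0.380 CPM in Control mice, a log2 fold change of -0.02 ± 0.069. Mrps2 averaged 33.9 ± 0.531 CPM in BPA mice and 33.2 ± 1.53 CPM in Control mice. Mrps27, a pentatricopeptide repeat protein, averaged 12.2 ± 0.999 CPM in BPA mice and 12.3 ± 0.366 CPM in Control mice (SD, n = 4 each, for these 3 genes). The means of Mrps12 and Mrps27 differed by less than the SD of either group, and those of Mrps2 by more than the BPA SD but less than the Control SD. Mrps36, which despite its name is a component of the alpha-ketoglutarate dehydrogenase complex, averaged 20.6 ± 1.86 CPM in BPA mice and 20.1 ± 1.44 CPM in Control mice. The annotation holds 3 pseudogenes named for Mrps36, so its reads may be split or borrowed.

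Among large-subunit genes, Mrpl3 averaged 31.8 ± 1.10 CPM in BPA mice and 30.7 ± 0.942 CPM in Control mice. Mrpl11, at the base of the stalk that recruits translation factors, averaged 18.1 ± 0.356 CPM in BPA mice and 18.7 ± 1.22 CPM in Control mice. Mrpl12, the stalk protein itself, averaged 21.9 ± 0.753 CPM in BPA mice and 20.8 ± 2.26 CPM in Control mice. The groups overlapped for each of them, and the log2 fold changes were 0.05 ± 0.047 for Mrpl3, -0.04 ± 0.058 for Mrpl11 and 0.07 ± 0.072 for Mrpl12, the last at 0.03 without Control 2 and 0.14 without Control 3. Mrpl44, which has a ribonuclease III fold, averaged 11.1 ± 0.152 CPM in BPA mice and 10.7 ± 0.718 CPM in Control mice. Mrpl58, a peptidyl-tRNA hydrolase that frees stalled ribosomes, averaged 19.3 ± 1.02 CPM in BPA mice and 18.5 ± 1.00 CPM in Control mice. Mrpl42 averaged 17.7 ± 1.42 CPM in BPA mice and 16.5 ± 0.366 CPM in Control mice (SD, n = 4 each, for these 6 genes). For these 3 as well the groups overlapped. The log2 fold change of Mrpl42 was 0.10 ± 0.065, and 0.06 without BPA 2, and that of Mrpl58 was 0.07 ± 0.060, and 0.03 without Control 1. Mrpl12, Mrpl44 and Mrpl58 each share exon bases with a gene on the opposite strand.

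The genes Mrps18a, Mrps18b and Mrps18c are paralogues of 1 bacterial gene, and each mitoribosome holds all 3 proteins, with that of Mrps18a in the large subunit. Mrps18a had 12.5, 13.4, 14.0 and 14.4 CPM in BPA mice, against 13.2, 13.4, 11.3 and 13.6 CPM in Control mice. Its groups overlapped, with Control 3 well below the other Control libraries. The log2 fold changes were 0.08 ± 0.074 for Mrps18a, 0.03 ± 0.072 for Mrps18b and 0.11 ± 0.074 for Mrps18c, each within the error of the others. Mrps18a was at 0.02 without Control 3 and Mrps18c at 0.06 without BPA 1. Per kilobase of exon, levels were 15.4 ± 0.945 (BPA) and 14.6 ± 1.20 (Control) CPM for Mrps18a, 14.0 ± 0.887 (BPA) and 13.0 ± 0.638 (Control) for Mrps18c, and 7.07 ± 0.377 (BPA) and 6.93 ± 0.209 (Control) for Mrps18b (SD, n = 4 each). Mrps18b was thus the lowest of the family in either group, while the libraries of Mrps18a and Mrps18c overlapped in both groups. Mrps30, the other symbol of the small subunit whose protein sits in the large one, averaged 22.6 ± 1.14 CPM in BPA mice and 21.6 ± 1.26 CPM in Control mice (SD, n = 4 each), a log2 fold change of 0.06 ± 0.059.

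Although most of these proteins are present in single copy in a mitoribosome, their messages were not equal in level. Per kilobase of annotated exon, mean levels over the 8 libraries ran from 2.06 CPM for Mrpl47 to 58.4 CPM for Mrps21, a 28.3-fold range, with medians of 10.5 CPM in the small and 10.2 CPM in the large subunit. In the small subunit the highest were Mrps21 at 60.1 ± 7.01 (BPA) and 56.7 ± 4.83 (Control) CPM per kilobase, Mrps36 at 29.4 ± 2.66 (BPA) and 28.7 ± 2.06 (Control), and Mrps33 at 27.4 ± 1.93 (BPA) and 27.9 ± 2.27 (Control). Mrps36 and Mrps33 did not differ from each other beyond their spread at this length. The lowest were Mrps16 at 2.53 ± 0.117 (BPA) and 2.47 ± 0.260 (Control) and Mrps35 at 3.48 ± 0.267 (BPA) and 3.27 ± 0.172 (Control) (SD, n = 4 each).

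In the large subunit Mrpl41 led at 48.1 ± 2.71 (BPA) and 42.4 ± 1.38 (Control) CPM per kilobase, well above Mrpl18 at 26.3 ± 1.93 (BPA) and 24.7 ± 0.863 (Control) and Mrpl42 at 26.0 ± 2.08 (BPA) and 24.2 ± 0.539 (Control). Mrpl18 and Mrpl42 did not differ beyond their spread, and Mrpl18 overlaps Tcp1 on the opposite strand. The lowest were Mrpl47 at 2.03 ± 0.123 (BPA) and 2.09 ± 0.222 (Control) and Mrpl48 at 2.97 ± 0.101 (BPA) and 2.83 ± 0.0526 (Control) (SD, n = 4 each). The length used is that of all annotated exons with a RefSeq match, so a long alternative end lowers the value. With the shortest such transcript as the length, chosen after the data were seen, the order changed. Mrps21 kept the first rank, but Mrps33 reached 61.2 CPM per kilobase, ahead of Mrpl41 at 45.3 and Mrps36 at 35.7. In the large subunit Mrpl30 (31.2) and Mrpl55 (26.8) passed Mrpl42 (25.8) and Mrpl18 (25.5). Mrps23 moved up to rank 5 of 78 from 34, Mrpl58 to 10 from 55, Mrpl3 to 11 from 61, Mrps16 to 52 from 77 and Mrpl48 to 55 from 76, while Mrpl47 remained last. The order of levels thus depends on the length chosen, while the fold changes between groups were computed without dividing by a length. Mrps18b, Mrps27, Mrps30, Mrpl14, Mrpl47 and Mrpl48 also share exon bases with a gene on the opposite strand, and a pseudogene is named for Mrpl48. The fewest reads belonged to Mrpl14, at 2.65 ± 0.220 CPM in BPA mice and 2.49 ± 0.287 CPM in Control mice, and to Mrpl34, at 3.02 ± 0.340 CPM in BPA mice and 3.06 ± 0.347 CPM in Control mice (SD, n = 4 each).

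**Figure D5:**
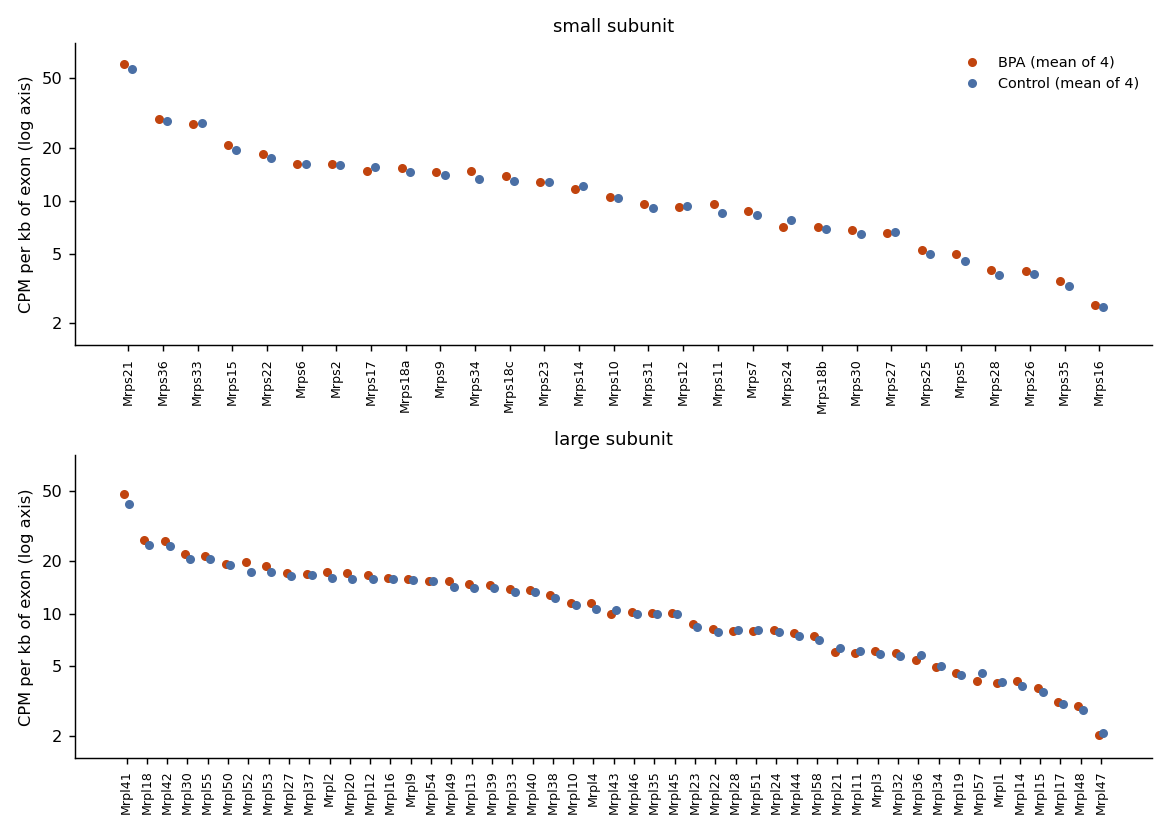
Mean level per kilobase of exon (y axis, log scale) of each small-subunit gene (top) and large-subunit gene (bottom), ordered by level, in BPA and Control mice (n = 4 each). Levels run from 2.06 CPM per kilobase for Mrpl47 to 58.4 for Mrps21, and the BPA and Control points of a gene lie close together against that range.

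Other genes of mitochondrial translation were read in the same fit. Of 65 listed genes, 2 are also members (Mrpl57 and Mrpl58) and 62 of the rest were tested, none of which passed the adjusted threshold of edgeR. The estimate was above 0 for 40 and below 0 for 22, with a median log2 fold change of 0.027. At an unadjusted p under 0.05 there were 2 genes with BPA higher and 1 with BPA lower, where the share of all genes was 4.52%. The groups did not overlap for 3 genes with BPA higher and 1 with BPA lower, where the share of all genes was 2.79%. By role, 5 of 5 mitoribosomal proteins with other symbols were above 0 (median 0.035), as were 11 of 13 translation factors (median 0.047), 15 of 20 assembly factors (median 0.036), 6 of 17 mitochondrial tRNA synthetases (median -0.028) and 3 of 7 messenger RNA and membrane factors (median -0.0023). The synthetases, which charge the organelle's tRNAs, were the only role besides the last with a median under 0.

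Aurkaip1, a mitochondria-specific small-subunit protein with another kind of symbol, had 48.6, 52.3, 49.4 and 49.8 CPM in BPA mice, against 43.6, 45.9, 45.0 and 45.5 CPM in Control mice. The groups did not overlap, and the log2 fold change was 0.15 ± 0.043 (edgeR adjusted p = 0.955), close in size to that of Mrpl41. Hars2, the mitochondrial histidyl-tRNA synthetase, had 14.4, 14.0, 13.7 and 15.05 CPM in BPA mice, against 14.4, 17.5, 16.5 and 18.5 CPM in Control mice. Control 1 lay inside the BPA range, the log2 fold change was -0.22 ± 0.076 (edgeR adjusted p = 0.955), and its neighbour Hars overlaps it. Yars2, the mitochondrial tyrosyl-tRNA synthetase, had 8.43, 8.49, 8.90 and 9.08 CPM in BPA mice, against 9.46, 9.35, 9.91 and 9.60 CPM in Control mice. Every BPA library lay below every Control library, with a log2 fold change of -0.13 ± 0.065 (edgeR adjusted p = 0.955).

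Dap3, a GTP-binding protein of the small subunit, averaged 55.0 ± 1.92 CPM in BPA mice and 53.9 ± 1.64 CPM in Control mice. Tufm, the mitochondrial elongation factor Tu, averaged 15.1 ± 1.22 CPM in BPA mice and 14.6 ± 1.02 CPM in Control mice. Tfam, which packages mitochondrial DNA and starts its transcription, averaged 36.5 ± 1.07 CPM in BPA mice and 36.3 ± 1.96 CPM in Control mice. Lrpprc, which stabilises mitochondrial messages, averaged 71.5 ± 1.79 CPM in BPA mice and 71.6 ± 3.69 CPM in Control mice (SD, n = 4 each, for these 4 genes). The groups overlapped for all 4, and the differences were smaller than the spread between mice.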

How the data were processed

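Polyadenylated RNA from the hippocampus of 8 mice was sequenced, and the authors deposited 1 table of unnormalized whole-number read counts for every gene symbol. The submitters' processing notes name Trimmomatic 0.32, STAR 2.3.0e, featureCounts 1.5.0 and the mm10 build, and DESeq2 with no version. How featureCounts treated strand is not given in the sources, and values of members that overlap a gene on the opposite strand (27 of 78 by GENCODE vM21) are uncertain. Columns were matched to samples by the codes in their titles.

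Genes were filtered with filterByExpr and tested in edgeR 4.0.16 under R 4.3.3 (TMM scaling, quasi-likelihood, two-sided), and p-values were adjusted over 15434 genes by Benjamini-Hochberg with a threshold of 0.05. The SE of a fold change was taken from its test statistic. CPM are TMM scaled, and levels are mean ± SD over 4 mice. The biological coefficient of variation was 8.20%. Each of the 12 within-group pairs of libraries differed by more than sampling noise, at a chi-square of 10.3 to 25.4 for each degree of freedom, and none was treated as a duplicate. The scripts were tested on simulated counts. Exon lengths are those of GENCODE exons, and promoters those of RefSeq.

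The members, the translation and marker lists, and the rule for named genes were chosen with earlier results of these data known. The rule takes members past the threshold, the 5 with the smallest p in each subunit, the 3 highest and 2 lowest per kilobase in each subunit, members whose groups do not overlap, 14 members by role, 8 genes of the translation list, and the 2 members with the fewest reads. The result of 1 gene of the translation list chosen by this rule is not reported here, though it stays in every count; it has the largest estimate of that list, higher in BPA mice. No test over a list was made. Alternatives were RLE and upper-quartile scaling, DESeq2 1.42.0, limma-voom (limma 3.58.1), no filter, a replicate block, thinning to the smallest library, and leaving out libraries or overlapping members.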

Additional observations from a re-analysis of the deposited data

Results flagged for a closer look

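In 90 groups of 4 values (the named genes and 4 summary measures of each library, in BPA and in Control mice), 5 held a library whose gap to the nearest other exceeded Dixon's 95% critical share of the group's range, and chance alone marks about 1 in 20 such groups. Control 3 had 31.7 CPM of Mrpl18, above the other Control libraries, and 11.3 CPM of Mrps18a, below them. Control 4 stood above the other Control libraries at 8.16 CPM of Mrpl47 and 11.7 CPM of Mrpl44. BPA 2 had 52.1 CPM of Dap3, below the other BPA libraries.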

How the results depend on the processing

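No member was called under any of the alternatives run, and DESeq2 alone called genes at all, 7 over the whole table, where edgeR called 0 (698 at an unadjusted p under 0.05, against 627 by DESeq2 and 704 by limma-voom). The count of members at an unadjusted p under 0.05 was 3 as reported, 1 with RLE scaling, DESeq2, no filter or the replicate block, and 6 without Control 2 and BPA 3 together, the libraries with the most choroid plexus RNA. The share of all genes at that threshold was 4.52% as reported, 4.49% with RLE scaling, 3.02% by DESeq2, 4.32% with no filter, 3.23% with the replicate block and 5.81% without Control 2 and BPA 3. Leaving out 1 library at a time it ran from 1 (without BPA 2) to 6 (without BPA 3), with 2.28% and 6.65% of all genes.

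Most members were above 0 in each of the following. Between 59 and 64 of 78 were above 0 with 1 library left out, 62 after thinning every library to the smallest total, and 59 without Control 2 and BPA 3. Without 1 library the median was 0.040 (without BPA 1) to 0.069 for the small subunit and 0.037 to 0.059 for the large, and small minus large ran from -0.0056 to 0.026. Among members without an opposite-strand overlap, 38 of 51 were above 0, the small-subunit median was 0.038 and small minus large was -0.012. The median log2 fold change of all genes was -0.0021 with RLE scaling and -0.00012 with upper-quartile scaling, against 4.9e-05 as reported.

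Signs were followed for the named genes only, and the other members were not examined in this way. The named genes whose sign turned had estimates near 0, between -0.038 (Mrpl47) and 0.038 (Mrps16). Without 1 library, log2 fold changes ran from -0.025 to 0.029 for Lrpprc, -0.050 to 0.00062 for Mrps12, -0.010 to 0.045 for Tfam, -0.059 to 0.027 for Mrps33, -0.041 to 0.035 for Mrps27, -0.024 to 0.078 for Mrps36, -0.080 to 0.057 for Mrpl34, -0.033 to 0.095 for Mrps16 and -0.080 to 0.035 for Mrpl47. Thinned, Mrps12 was at 0.021 and Tfam at -0.0088, and with no filter Lrpprc was at 0.00083. Without Control 2 and BPA 3, Mrps36 was at -0.00043, Mrps12 at 0.0044, Mrps27 at 0.043 and Tfam at -0.0087. The cause was not tested.

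The replicate numbers did not pair the samples: same-numbered libraries correlated in their deviations at -0.123, -0.372, -0.295 and 0.070. With the replicate block 0 genes were called, 498 had an unadjusted p under 0.05, and the medians were 0.066 (small) and 0.054 (large). The alternatives without overlapping members, without Control 2 and BPA 3 together, and with other exon lengths were chosen after the data were seen.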
